A study of Mus musculus with 10 samples.

Results

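The genes described are 35 mouse genes of the DNA damage checkpoint and of repair by recombination, a list defined by the known functions of their products. The list was chosen with earlier results of these data known, so its shares against all genes are descriptions and not independent tests. The 35 genes are part of 22552 listed in the expression tables, and all 35 were among the 10901 genes expressed highly enough to be tested. They fall into 9 genes of homologous recombination, 4 of end resection and unwinding, 8 of break sensing, 7 of the Fanconi anaemia pathway and 7 of the checkpoint and the replication fork. Polyadenylated RNA of mouse embryonic fibroblasts, connective tissue cells grown from embryos, was sequenced from 8 libraries in 4 groups of 2. The groups were mock-transfected cells at 32 °C, cells transfected with siRNA against Cirbp at 37 °C, cells transfected with siRNA against Rbm3 at 37 °C, and mock-transfected cells at 37 °C. Cirbp and Rbm3 encode a pair of proteins that bind RNA and increase when cells are cooled mildly. The study asked how these proteins act on the transcriptome and where they bind RNA. A further 2 samples are PAR-CLIP libraries from cells at 37 °C, 1 stably expressing FLAG-tagged Cirbp and 1 stably expressing FLAG-tagged Rbm3. The labels give no strain, embryonic age, clone number or time spent at 32 °C. No group with a control siRNA is used here, so an effect of losing the target and a general effect of siRNA cannot be told apart.

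Broken DNA ends are bound by the Mre11a-Rad50-Nbn complex, which activates the kinase Atm and starts a chain of chromatin marks around the break. In dividing cells the ends are then trimmed to single strands, on which Brca2 and its partners act so that the intact sister chromatid is copied. Single-stranded DNA at stalled forks calls on the kinase Atr instead, which acts through Chek1 to hold the cell cycle, while the Fanconi anaemia proteins remove crosslinks between the strands. Many of these genes are known to be transcribed mainly in cycling cells, around the time of DNA replication, and embryonic fibroblasts divide rapidly in culture.

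RefSeq start regions on GRCm38.p6 were found for 26 of the 35 genes. The 4 shown here, each from 250 bases before to 50 bases after the start, are from Rad51ap1, which encodes a protein of strand pairing and was called in both main comparisons, from Mdc1 and Clspn, whose levels were low at 32 °C, and from Atr, whose means differed by 0.00 between the temperatures. Capitals mark the letters GCGGGAA, their relative GCGCCAA or the third form GCGCGAA, on either strand, the core of sites that E2F proteins, the regulators of genes used in DNA replication, are known to bind. The regions are chr6:126939538-126939837 on the minus strand for Rad51ap1, chr17:35841248-35841547 on the plus strand for Mdc1, chr4:126556730-126557029 on the plus strand for Clspn and chr9:95857347-95857646 on the plus strand for Atr.
Rad51ap1: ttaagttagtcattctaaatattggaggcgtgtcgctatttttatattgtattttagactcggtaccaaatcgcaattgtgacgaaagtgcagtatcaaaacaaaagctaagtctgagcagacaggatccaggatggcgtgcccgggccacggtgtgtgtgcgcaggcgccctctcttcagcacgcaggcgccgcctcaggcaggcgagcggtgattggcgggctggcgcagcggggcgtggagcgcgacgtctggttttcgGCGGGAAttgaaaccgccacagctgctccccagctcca
Mdc1: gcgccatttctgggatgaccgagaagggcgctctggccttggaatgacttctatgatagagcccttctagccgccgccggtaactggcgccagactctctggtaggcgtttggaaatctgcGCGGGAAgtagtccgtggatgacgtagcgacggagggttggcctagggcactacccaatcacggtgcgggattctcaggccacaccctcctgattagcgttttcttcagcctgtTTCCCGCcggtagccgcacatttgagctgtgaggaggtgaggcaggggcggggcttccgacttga
Clspn: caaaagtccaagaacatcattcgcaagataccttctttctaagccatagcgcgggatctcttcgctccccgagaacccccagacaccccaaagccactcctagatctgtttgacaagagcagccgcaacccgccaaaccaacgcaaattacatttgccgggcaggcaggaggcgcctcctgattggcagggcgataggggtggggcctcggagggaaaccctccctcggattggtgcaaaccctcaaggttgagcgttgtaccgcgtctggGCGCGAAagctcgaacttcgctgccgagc
Atr: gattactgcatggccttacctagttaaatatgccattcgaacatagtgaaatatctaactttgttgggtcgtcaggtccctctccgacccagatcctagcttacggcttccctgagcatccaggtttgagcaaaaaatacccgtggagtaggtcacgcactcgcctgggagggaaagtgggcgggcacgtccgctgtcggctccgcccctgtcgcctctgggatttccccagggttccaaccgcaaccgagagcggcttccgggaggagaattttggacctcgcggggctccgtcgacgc
These letters occurred in the start regions of 16 of the 26 genes, or 61.5%. They occurred in 8.07% of all 32851 start regions in the table, in 15.1% of the 9890 that belong to tested genes, and in 12.4% of 4258 regions of like GC content. Among the genes that fell at 32 °C, 7 of 11 with a start region held them, as did 9 of the 15 that were not called. Rad54l, Fanca, Timeless and Trp53bp1 fell at 32 °C and had no match in this window. Listed Timeless transcripts begin at mm9 chr10:127669119 or chr10:127675122, and the window does not span both. The letters CCAAT occurred in 16 of the 26 regions and in 37.4% of all, in 38.5% of those of tested genes and 37.6% of those of like GC content. TTTGAA occurred in 2 of the 26, or 7.69%, and in 17.9%, 11.5% and 10.7% of the same 3 sets, and both were searched on both strands. A match describes letters in a window and does not show that a factor binds there.

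Expression is given as FPKM, the sequenced fragments per kilobase of a transcript relative to all mapped fragments of the library, summed over the listed transcripts of a gene. Libraries held 24.8 to 27.8 M mapped fragments. Differences are of log2(FPKM + 1), which understates the change of genes at low FPKM, and a gene is called where the Benjamini-Hochberg adjusted p of limma over the 10901 genes is under 0.05. The labels do not say whether the 2 libraries of a group came from separate cultures, so p-values measure only the spread between these libraries. Cirbp had 34.5 and 37.2 FPKM in mock 32 °C, 10.8 and 6.07 with siCirbp, 13.8 and 23.8 in the libraries labelled siRbm3, and 15.9 and 17.1 in mock 37 °C. Rbm3 had 3.64 and 3.20 FPKM in mock 32 °C, 5.54 and 7.55 with siCirbp, 3.05 and 1.16 in the libraries labelled siRbm3, and 1.85 and 2.21 in mock 37 °C. Replicate 1 of the siRbm3 label thus stood above both mock 37 °C libraries in its own target, against its label. Neither target passed in its own knockdown: Cirbp stood at -0.94 in siCirbp (limma adjusted p = 0.116) and Rbm3 at -0.03 under the siRbm3 label (limma adjusted p = 0.971). Of 14 fibroblast markers, 12 averaged at least 1 FPKM, Lum averaged 0.0543 and Thy1 was listed at 0. At 32 °C 5 of these 12 fell, among them Col1a1 by 1.96 and Fn1 by 1.59, and Dcn, S100a4 and Pdgfra rose, by 1.02, 0.98 and 0.61. In the macrophage, epithelial, endothelial, neural and muscle lists, 2 of 8, 1 of 8, 3 of 8, 2 of 6 and 3 of 7 markers averaged at least 1 FPKM. Emr1, Myod1 and Snap25 were listed at 0. The neural markers summed to 17.5 and 18.4 FPKM in mock 32 °C, 57.1 and 77.0 with siCirbp, 64.0 and 68.4 in the libraries labelled siRbm3, and 50.4 and 53.9 in mock 37 °C, and Nes and Sox2 fell at 32 °C. The macrophage markers summed to 30.5 and 36.0 FPKM in mock 32 °C, 15.0 and 14.2 with siCirbp, 13.1 and 25.0 in the libraries labelled siRbm3, and 17.6 and 20.6 in mock 37 °C. Cd68 and Cd14, neither of which passed, carried that sum, and Ptprc, Itgam, Lyz2 and Aif1 stayed under 0.1 FPKM in every library. The epithelial markers summed to 0.118 to 0.236 FPKM in mock 32 °C, against 1.41 to 7.75 FPKM in the 6 libraries at 37 °C. Krt19, which fell at 32 °C, carried the sum at 37 °C. Epcam, Cdh1, Krt8, Krt18, Krt14, Cldn4 and Esrp1 stayed under 0.1 FPKM in every library. The part of these cell types in the results was not tested.

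At 32 °C, the calls among the 35 genes were all lower than at 37 °C and included H2afx and Mdc1 of the histone mark at breaks, 5 genes of recombination and 4 of the Fanconi anaemia pathway, while no gene of the sensor complex, nor Atm or Atr, passed. Of the 35 genes, 14 (40.0%) fell and 0 rose by limma, where 32.8% of all tested genes were called, 19.8% lower and 13.0% higher. The median difference of the 35 was -0.46, with a range from -1.51 to 0.42, and the median of all tested genes was -0.02. Both mock 32 °C libraries lay below both mock 37 °C libraries for 22 of the 35 genes (62.9%), against 43.8% of all tested genes, and above them for 7 (20.0%), against 41.0% of all. The genes that fell were 5 of 9 in homologous recombination, 0 of 4 in resection and unwinding, 3 of 8 in break sensing, 4 of 7 in the Fanconi anaemia pathway and 2 of 7 in the checkpoint and fork. Most of these 14 calls were lost whichever mock library was left out, in fits where that group holds a lone library. The median difference of the 35 was then -0.45 without mock 32 °C replicate 1 and -0.47 without mock 32 °C replicate 2. It was -0.44 without mock 37 °C replicate 1 and -0.46 without mock 37 °C replicate 2. Centring each library on its median moved the median of all genes by over 0.1, to 0.11, and left 10 of the 35 lower and 1, Rnf8, higher; over all genes that centring called 2110 higher and 1721 lower, against 1420 higher and 2153 lower without it.

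After siRNA against Cirbp, 6 of the 35 genes rose against mock 37 °C by limma and 29 were not called. The 6 were Timeless, Rad54l, Xrcc2, Rad51ap1, Chek2 and Exo1, or 17.1% of the list, and 0 fell, where 3.39% of all tested genes were called, 2.77% higher and 0.624% lower. The difference was positive for 34 of the 35, against 6413 of the 10901 tested genes, and Atr was the exception at -0.18. The median was 0.77, against 0.08 for all tested genes. Exo1, Chek1 and Brip1 averaged under 1 FPKM over the libraries outside siCirbp, so the siCirbp libraries themselves brought them into the test. Both siCirbp libraries lay above both mock 37 °C libraries for 30 genes (85.7%), against 38.5% of all tested genes. An unadjusted limma p under 0.05 was reached by 27 of the 35 and by 2642 of all genes. The calls turned on single libraries: 0 were made without siCirbp replicate 2, without either mock 37 °C library or without either mock 32 °C library, while 11 were made without siCirbp replicate 1 and 23 without either library labelled siRbm3, which are not part of the comparison but share its estimate of the spread. Calls over all genes, 370 with every library, moved too: they were 680 without siCirbp replicate 1, 1612 and 1613 without a library labelled siRbm3, and 8 without siCirbp replicate 2. Timeless, Rad51ap1 and Chek2 were each called under 5 of the 9 processing alternatives. Rad54l, Xrcc2 and Exo1 were tested under 8 of them, being below the filter of 5 FPKM. Rad54l and Xrcc2 were each called under 4 of these 8 and Exo1 under 1. Removing the dependence of differences on transcript length left 1 call, Timeless, at an unchanged direction of the median (0.79), and quantile normalization split the calls over all genes into 280 higher and 124 lower, against 302 and 68.

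**Figure D1:**
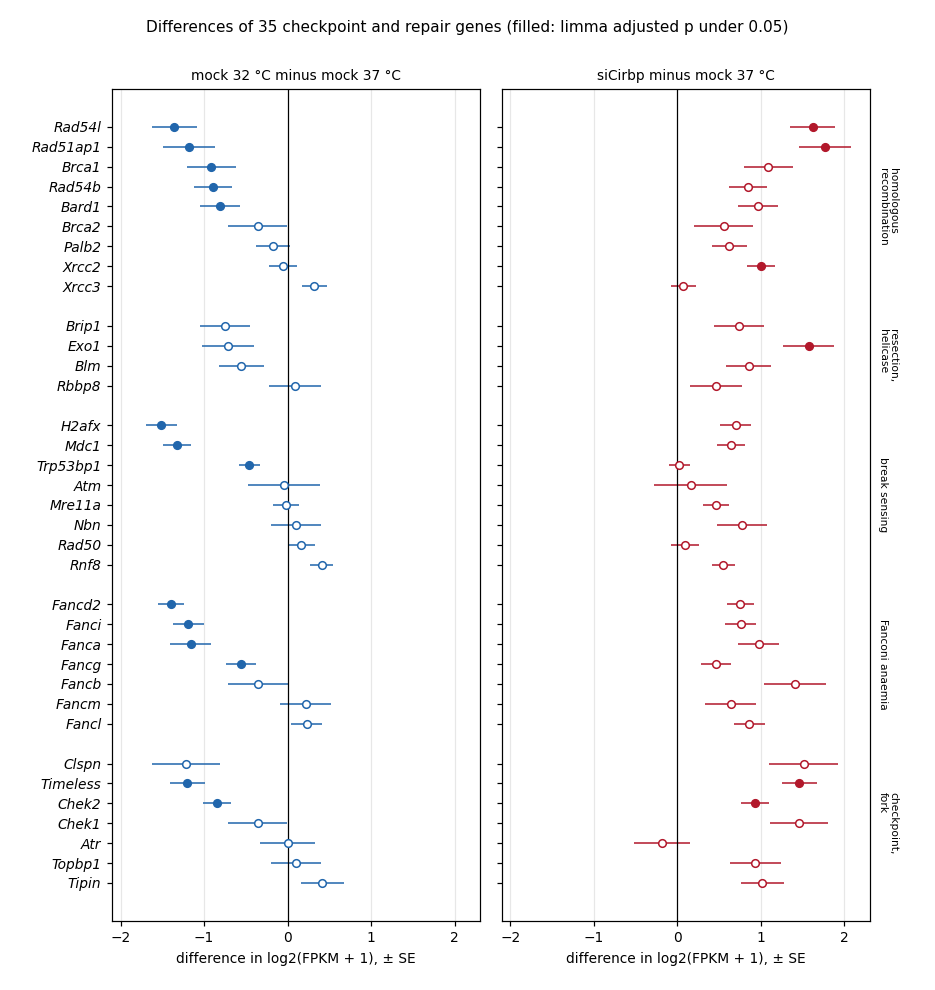
Differences in log2(FPKM + 1) with their standard errors for the 35 genes, mock 32 °C minus mock 37 °C on the left and siCirbp minus mock 37 °C on the right, ordered within each role by the left panel; filled points have a limma adjusted p under 0.05. The 14 filled points on the left lie below 0, the 6 on the right lie above it, and Atr, Rad50 and Atm lie near 0 in both panels.

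Both comparisons use the same mock 37 °C libraries, so their differences are not independent. Chek2, Rad51ap1, Rad54l and Timeless passed in both, lower at 32 °C and higher in siCirbp. In all, 16 of the 35 genes passed in 1 or both comparisons and 19 in neither. Xrcc2 passed in siCirbp, at 1.00, and stood at -0.06 at 32 °C. H2afx and Mdc1 passed at 32 °C, at -1.51 and -1.33, and stood at 0.70 and 0.64 with siCirbp, which did not pass. The highest of the 8 values was in siCirbp replicate 2 for 29 of the 35 genes, and the lowest was in a mock 32 °C library for 22 and in replicate 2 of the siRbm3 label for 10.

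**Figure D2:**
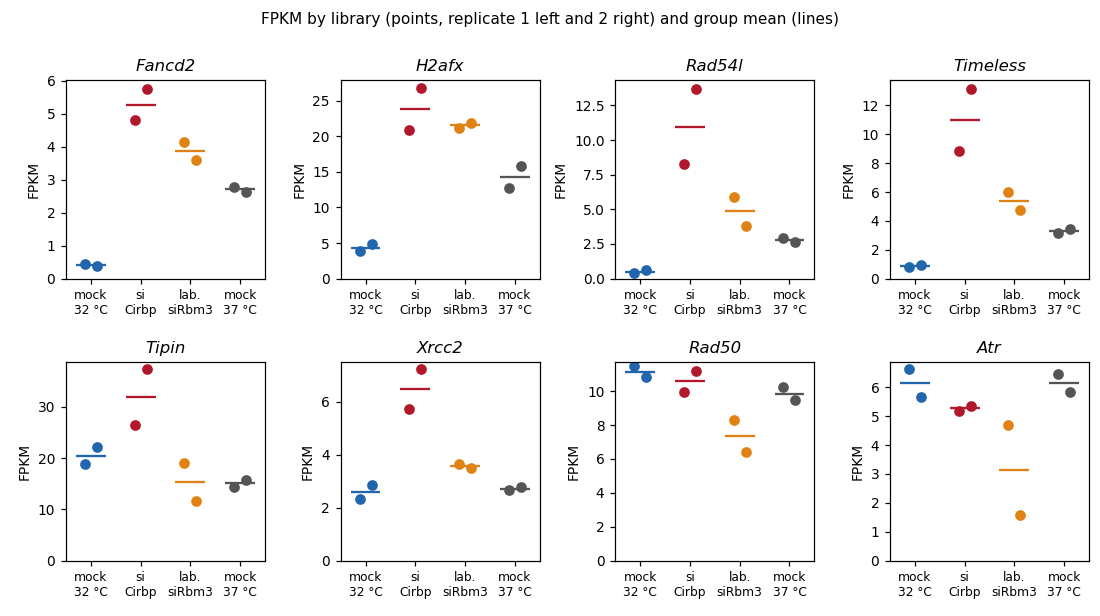
FPKM of 8 genes in each library (points, replicate 1 left of replicate 2) with the group mean (line), each panel with its own axis from 0. Fancd2, H2afx, Rad54l and Timeless are lowest in mock 32 °C, Tipin and Xrcc2 are highest in siCirbp, and Rad50 and Atr lie within a narrow range apart from the low values of the libraries labelled siRbm3.

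Among the genes of homologous recombination, Rad54l, a DNA translocase (mm9 chr4:115769560-115796295), varied most of the 35, by 36.2 times between its lowest and highest library. It had 0.378 and 0.599 FPKM in mock 32 °C, 8.29 and 13.7 with siCirbp, 5.92 and 3.81 in the libraries labelled siRbm3, and 2.95 and 2.66 in mock 37 °C. No 2 of mock 32 °C, siCirbp and mock 37 °C overlapped. Its difference was -1.36 ± 0.27 (SE, limma adjusted p = 0.010, n = 2 per group) at 32 °C and 1.62 ± 0.27 (limma adjusted p = 0.033, n = 2 per group) in siCirbp. The low values rest on few reads, about 29.5 read equivalents in the lowest library. Rad51ap1, which stimulates strand pairing and whose start region is printed above, had 0.963 and 1.34 FPKM in mock 32 °C, 12.9 and 18.5 with siCirbp, 8.38 and 3.89 in the libraries labelled siRbm3, and 3.95 and 3.76 in mock 37 °C. It fell by 1.18 at 32 °C (limma adjusted p = 0.027) and rose by 1.76 in siCirbp (limma adjusted p = 0.037). The libraries labelled siRbm3 were split, one well above and one level with mock 37 °C.

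Rad54b, a relative of Rad54l, had 0.575 and 0.466 FPKM in mock 32 °C, 3.72 and 4.48 with siCirbp, 2.75 and 1.45 in the libraries labelled siRbm3, and 1.64 and 2.03 in mock 37 °C. Brca1, the breast cancer susceptibility gene whose product forms a ubiquitin ligase with Bard1, had 2.84 and 3.04 FPKM in mock 32 °C, 12.0 and 18.2 with siCirbp, 8.98 and 4.63 in the libraries labelled siRbm3, and 6.50 and 6.34 in mock 37 °C. Bard1 itself had 0.734 and 0.610 FPKM in mock 32 °C, 3.58 and 6.17 with siCirbp, 3.02 and 2.13 in the libraries labelled siRbm3, and 2.01 and 1.86 in mock 37 °C. All 3 fell at 32 °C, by 0.90, 0.92 and 0.81, and the last 2 only just passed, with limma adjusted p of 0.048 for Brca1 and 0.037 for Bard1. Neither passed after centring on the median, quantile normalization or removal of the length trend. In siCirbp the differences of Rad54b, Brca1 and Bard1 were 0.85, 1.09 and 0.96, and none passed.

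The remaining 4 genes of this role did not pass at 32 °C. Xrcc2, which acts in strand exchange, had 2.31 and 2.85 FPKM in mock 32 °C, 5.72 and 7.25 with siCirbp, 3.65 and 3.49 in the libraries labelled siRbm3, and 2.64 and 2.79 in mock 37 °C. Its mock 32 °C values straddled those of mock 37 °C, and it rose by 1.00 ± 0.17 in siCirbp (limma adjusted p = 0.036, n = 2 per group). Xrcc3, which acts at the same stage of repair, had 6.51 and 6.14 FPKM in mock 32 °C, 4.67 and 5.68 with siCirbp, 3.92 and 4.08 in the libraries labelled siRbm3, and 4.92 and 4.81 in mock 37 °C. It was thus highest at 32 °C, by 0.32, which did not pass (limma adjusted p = 0.142). Brca2, a mediator of recombination, and Palb2, which joins Brca1 to Brca2, differed at 32 °C by -0.36 and -0.18 and in siCirbp by 0.55 and 0.62, and neither passed in either comparison.

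None of the 4 genes of resection and unwinding passed at 32 °C, though 3 of them were lower in both libraries. Exo1, an exonuclease that lengthens resected ends (mm9 chr1:177810909-177841527), had 0.208 and 0.270 FPKM in mock 32 °C, 3.51 and 7.10 with siCirbp, 2.18 and 1.11 in the libraries labelled siRbm3, and 0.911 and 1.16 in mock 37 °C. At 32 °C its difference was -0.71, where the added pseudocount of 1 exceeds its level, and it passed at a pseudocount of 0.1. It rose by 1.57 ± 0.31 in siCirbp (limma adjusted p = 0.044, n = 2 per group), although the 2 siCirbp libraries lay far apart. Its mean reached the filter of 1 FPKM only through those 2 libraries, so this test is not independent of the filter. Only 1 of the 8 processing alternatives that tested Exo1 kept its call. Blm, the helicase mutated in Bloom syndrome, had 1.81 and 2.15 FPKM in mock 32 °C, 5.85 and 8.07 with siCirbp, 4.12 and 2.02 in the libraries labelled siRbm3, and 3.29 and 3.44 in mock 37 °C. Brip1, a helicase that binds Brca1, was the lowest of the 35, with 0.275 and 0.308 FPKM in mock 32 °C, 1.90 and 3.56 with siCirbp, 1.59 and 0.515 in the libraries labelled siRbm3, and 1.22 and 1.13 in mock 37 °C. Rbbp8, which starts resection together with Mre11a, differed by 0.08 at 32 °C and by 0.46 in siCirbp. Neither Blm, Brip1 nor Rbbp8 passed in either comparison, though at 32 °C Brip1 passed at a pseudocount of 0.1, and Blm and Brip1 passed with the mock groups fitted alone. The fit of the mock groups alone called 24 of the 35 genes and most of all tested genes.

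Of the break sensing genes, H2afx, Mdc1 and Trp53bp1 fell at 32 °C, and the sensor complex and its kinase did not pass. Mre11a, Nbn, Rad50 and Atm differed by -0.02, 0.10, 0.16 and -0.04, with limma adjusted p of at least 0.473. Rad50 had 11.5 and 10.8 FPKM in mock 32 °C, 9.98 and 11.2 with siCirbp, 8.30 and 6.38 in the libraries labelled siRbm3, and 10.2 and 9.46 in mock 37 °C. H2afx, the histone variant that Atm phosphorylates beside breaks (mm9 chr9:44142798-44144156), had 3.87 and 4.81 FPKM in mock 32 °C, 20.9 and 26.7 with siCirbp, 21.2 and 21.8 in the libraries labelled siRbm3, and 12.7 and 15.8 in mock 37 °C. Mdc1, which binds that phosphorylated histone (mm9 chr17:35978443-35996615), had 3.73 and 3.55 FPKM in mock 32 °C, 14.8 and 19.9 with siCirbp, 15.0 and 15.5 in the libraries labelled siRbm3, and 10.9 and 10.5 in mock 37 °C. Their means were 4.34 ± 0.66 and 3.64 ± 0.12 FPKM in mock 32 °C, against 14.2 ± 2.2 and 10.7 ± 0.29 FPKM (SD, n = 2 each) in mock 37 °C. They fell by 1.51 ± 0.19 and 1.33 ± 0.17 (SE, limma adjusted p = 0.003 for each) and passed under each of the 9 processing alternatives.

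Rnf8 and Trp53bp1 act downstream of Mdc1. Rnf8, a ubiquitin ligase that Mdc1 recruits, had 17.6 and 18.7 FPKM in mock 32 °C, 18.6 and 21.6 with siCirbp, 18.2 and 18.5 in the libraries labelled siRbm3, and 13.5 and 13.3 in mock 37 °C. It was lowest in mock 37 °C, with a difference of 0.41 at 32 °C (limma adjusted p = 0.056) and of 0.55 in siCirbp (limma adjusted p = 0.071). Trp53bp1, a chromatin reader that restrains resection and the most highly expressed of the 35, had 18.9 and 19.2 FPKM in mock 32 °C, 26.3 and 27.7 with siCirbp, 26.2 and 26.5 in the libraries labelled siRbm3, and 27.1 and 26.0 in mock 37 °C. It fell by 0.46 at 32 °C (limma adjusted p = 0.029). With the length trend removed its difference was -0.04 (limma adjusted p = 0.814), and its transcript is long, 7709 nt.

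In the Fanconi anaemia pathway, Fancd2 and Fanci encode the pair of proteins that receive ubiquitin, and both fell at 32 °C. Fancd2 (mm9 chr6:113481676-113546279) had 0.452 and 0.370 FPKM in mock 32 °C, 4.80 and 5.75 with siCirbp, 4.13 and 3.60 in the libraries labelled siRbm3, and 2.79 and 2.63 in mock 37 °C. Its partner Fanci (mm9 chr7:86537224-86595150) had 0.765 and 0.663 FPKM in mock 32 °C, 5.26 and 5.95 with siCirbp, 4.72 and 3.28 in the libraries labelled siRbm3, and 3.07 and 2.74 in mock 37 °C. They fell by 1.40 ± 0.16 and 1.19 ± 0.19 at 32 °C (SE, limma adjusted p = 0.002 and 0.005). In siCirbp their differences were 0.75 and 0.76, with both libraries above both of mock 37 °C and limma adjusted p of 0.051 and 0.068. Fanca, a subunit of the core complex that acts on this pair, had 0.552 and 0.548 FPKM in mock 32 °C, 4.26 and 7.80 with siCirbp, 3.55 and 3.01 in the libraries labelled siRbm3, and 2.31 and 2.63 in mock 37 °C. It fell by 1.16 at 32 °C (limma adjusted p = 0.013).

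The other core complex genes were less uniform. Fancg fell by 0.56 at 32 °C (limma adjusted p = 0.046), a call lost after centring, quantile normalization or with the most abundant transcript alone. Fancl, the ubiquitin ligase subunit, had 4.00 and 4.27 FPKM in mock 32 °C, 7.27 and 6.70 with siCirbp, 5.06 and 3.91 in the libraries labelled siRbm3, and 4.01 and 2.84 in mock 37 °C. It overlapped between the temperatures, and its difference in siCirbp was 0.86 (limma adjusted p = 0.055). Fancl was 7.24 and 7.78 times the level of Fanca in mock 32 °C, 1.71 and 0.859 times with siCirbp, 1.42 and 1.30 times in the libraries labelled siRbm3, and 1.74 and 1.08 times in mock 37 °C, so within this complex the ligase and Fanca were at the most unequal levels at 32 °C. Fancb, another core subunit, and Fancm, a translocase that brings the complex to DNA, differed at 32 °C by -0.35 and 0.22 and in siCirbp by 1.41 and 0.64, and did not pass.

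Timeless and Tipin, whose products form 1 complex that protects replication forks, stood on opposite sides of 0 at 32 °C. Timeless (mm9 chr10:127669119-127689997) had 0.815 and 0.924 FPKM in mock 32 °C, 8.85 and 13.1 with siCirbp, 6.01 and 4.78 in the libraries labelled siRbm3, and 3.14 and 3.45 in mock 37 °C. Tipin had 18.8 and 22.1 FPKM in mock 32 °C, 26.4 and 37.5 with siCirbp, 19.0 and 11.7 in the libraries labelled siRbm3, and 14.4 and 15.7 in mock 37 °C. Timeless fell by 1.20 ± 0.21 at 32 °C (limma adjusted p = 0.007) and rose by 1.46 ± 0.21 in siCirbp (limma adjusted p = 0.027). With the most abundant transcript alone, Timeless passed in neither comparison. Tipin stood at 0.42 and 1.02, which did not pass (limma adjusted p = 0.241 and 0.070). The ratio of Timeless to Tipin was 0.0433 and 0.0418 in mock 32 °C, 0.335 and 0.351 with siCirbp, 0.316 and 0.408 in the libraries labelled siRbm3, and 0.218 and 0.220 in mock 37 °C. The ratio was lowest in mock 32 °C, without overlap with another group, and the ratios of the siRbm3 label lay on either side of those with siCirbp.

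Of the checkpoint kinases, Chek2 passed in both comparisons. Chek2, the kinase that relays the Atm signal, had 2.03 and 1.92 FPKM in mock 32 °C, 10.5 and 7.97 with siCirbp, 5.96 and 5.68 in the libraries labelled siRbm3, and 4.23 and 4.43 in mock 37 °C. It fell by 0.84 ± 0.17 at 32 °C (limma adjusted p = 0.011) and rose by 0.93 ± 0.17 in siCirbp (limma adjusted p = 0.038). Chek1, the kinase that relays the Atr signal, had 0.580 and 0.519 FPKM in mock 32 °C, 3.42 and 5.71 with siCirbp, 1.99 and 0.424 in the libraries labelled siRbm3, and 0.880 and 1.10 in mock 37 °C. It was the 1 gene of the 35 with a mock 37 °C mean under 1 FPKM, and its difference of 1.45 in siCirbp did not pass (limma adjusted p = 0.066). Clspn, the adaptor between Atr and Chek1, had 0.626 and 0.615 FPKM in mock 32 °C, 6.75 and 13.8 with siCirbp, 5.30 and 1.83 in the libraries labelled siRbm3, and 2.80 and 2.73 in mock 37 °C. The mock libraries of each temperature agreed closely, yet its difference of -1.22 at 32 °C missed the threshold (limma adjusted p = 0.057). It passed at a pseudocount of 0.1 FPKM and in a fit of the 2 mock groups alone, and under no other processing alternative. That fit called 24 of the 35 genes and most of all tested genes.

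Neither Atr nor its activator Topbp1 passed at 32 °C. Atr had 6.63 and 5.66 FPKM in mock 32 °C, 5.19 and 5.37 with siCirbp, 4.71 and 1.59 in the libraries labelled siRbm3, and 6.45 and 5.83 in mock 37 °C, a difference of 0.00 at 32 °C. Topbp1, which activates Atr, had 11.2 and 12.2 FPKM in mock 32 °C, 15.5 and 30.1 with siCirbp, 14.1 and 9.65 in the libraries labelled siRbm3, and 11.1 and 10.6 in mock 37 °C. Its 2 siCirbp libraries lay further apart than their mean lay above mock 37 °C, at 22.8 ± 10.4 FPKM against 10.9 ± 0.32 FPKM (SD, n = 2 each) in mock 37 °C, and it did not pass (limma adjusted p = 0.118).

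**Figure D3:**
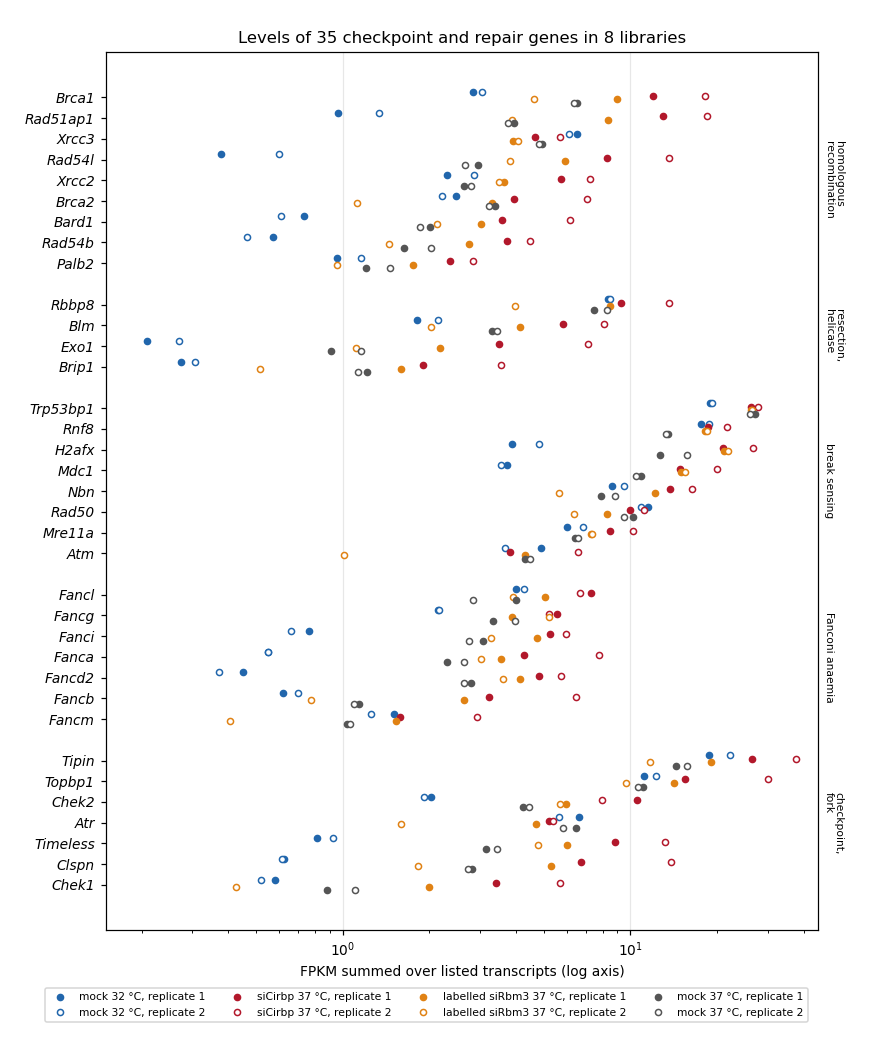
FPKM (log axis) of the 35 genes in the 8 libraries, grouped by role and ordered by mean level; filled and open points are replicates 1 and 2. The open siCirbp points lie furthest right for 29 genes, and the mock 32 °C points lie furthest left for 22.

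Averaged over the 8 libraries, the levels per length ran from 1.31 FPKM for Brip1, 1.41 for Fancm and 1.58 for Palb2 at the low end to 17.5 for Rnf8, 20.7 for Tipin and 24.7 for Trp53bp1 at the high end. The ranges of the 3 lowest genes over the libraries overlapped, as did those of the 3 highest. The median gene of the 35 averaged 4.76 FPKM, below the 13.4 FPKM of the median tested gene. The 35 transcripts were also long, 4402 nt at the median against 2766 nt, and 25 of them were longer than the median tested gene. Fancm had 1.51 and 1.25 FPKM in mock 32 °C, 1.58 and 2.93 with siCirbp, 1.53 and 0.405 in the libraries labelled siRbm3, and 1.03 and 1.06 in mock 37 °C. Palb2 had 0.956 and 1.16 FPKM in mock 32 °C, 2.36 and 2.83 with siCirbp, 1.75 and 0.956 in the libraries labelled siRbm3, and 1.20 and 1.46 in mock 37 °C. In sums over the 9 genes of homologous recombination, mock 32 °C held 17.7 and 18.4 FPKM, siCirbp 57.2 and 83.9, the libraries labelled siRbm3 41.7 and 25.6, and mock 37 °C 29.2 and 28.9.

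In the libraries labelled siRbm3, none of the 35 genes passed against mock 37 °C, where limma called 0.0% of all tested genes. An unadjusted limma p under 0.05 was reached by 7 of the 35 and by 1451 of all genes. The median difference was 0.15, against 0.12 for all genes. The 5 with the smallest p were H2afx at 0.57, Rnf8 at 0.42, Mdc1 at 0.48, Timeless at 0.57 and Atr at -0.89, with limma adjusted p of 0.350 to 0.356. The 2 libraries disagreed: replicate 1 stood above both mock 37 °C libraries for 28 genes, while replicate 2 stood below both for 18 and above both for 13. Without replicate 1 the median difference of the 35 genes was -0.15, and without replicate 2 it was 0.39. Atm, the largest transcript of the 35, had 4.89 and 3.66 FPKM in mock 32 °C, 3.81 and 6.56 with siCirbp, 4.29 and 1.01 in the libraries labelled siRbm3, and 4.32 and 4.49 in mock 37 °C.

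Set directly against the libraries labelled siRbm3, siCirbp was higher for all 35 genes by the mean, with a median difference of 0.75 against -0.00 for all tested genes, but limma called 0 of the 35, where 0.0367% of all tested genes were called, 0.0183% higher and 0.0183% lower. Both siCirbp libraries lay above both libraries of the siRbm3 label for 31 genes (88.6%), against 20.8% of all. An unadjusted limma p under 0.05 was reached by 24 of the 35 and by 1654 of all genes. The smallest p belonged to Timeless at 0.89, Xrcc2 at 0.70, Rad51ap1 at 1.28, Tipin at 1.03 and Chek1 at 1.40, each with a limma adjusted p of 0.221. Without replicate 1 of the siRbm3 label, 22 of the 35 were called higher, in a fit that called 2130 of all 10893 genes, and without replicate 2 of that label 0 were, where 9 of all genes were called.

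The 2 libraries of each siRNA group differed in most of the 35 genes. In siCirbp, replicate 2 stood above replicate 1 for 32 of the 35 genes, by a median of 0.41 against -0.01 for all genes, and under the siRbm3 label replicate 2 stood below replicate 1 for 28, by a median of -0.51 against 0.09 for all genes. The mock groups were even, with medians of 0.02 in mock 32 °C and -0.03 in mock 37 °C. Transcript length moved with these differences. For the 12 genes over 5000 nt the median difference of replicate 2 from replicate 1 was 0.63 in siCirbp and -0.68 under the siRbm3 label, and for the 12 genes under 3000 nt it was 0.24 and -0.41. Over the 35 genes, which share their libraries, Spearman's rho between length and that difference was -0.58 in mock 32 °C, 0.32 with siCirbp, -0.31 under the siRbm3 label and -0.32 in mock 37 °C. Length also moved with the differences between groups over all tested genes, with rho of -0.34 for mock 32 °C, -0.27 for siCirbp and -0.33 for the siRbm3 label, each against mock 37 °C. The part of length in the results was not tested beyond the removal of this trend, after which 11 of the 35 genes were lower at 32 °C at a median of -0.28.

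**Figure D4:**
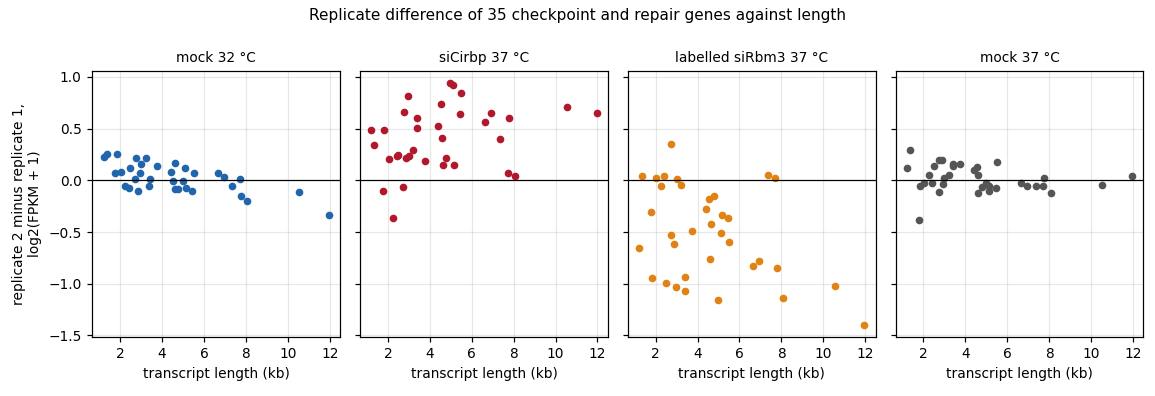
Difference of replicate 2 from replicate 1 in log2(FPKM + 1) against transcript length in kilobases, 1 point per gene of the 35 and 1 panel per group. The siCirbp points lie mostly above 0, those labelled siRbm3 mostly below it and lower for long transcripts, and the mock points lie near 0.

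Genes of cell division were counted in the same fit. Mki67, a marker of cycling cells, had 3.77 and 3.52 FPKM in mock 32 °C, 33.3 and 64.1 with siCirbp, 32.2 and 10.7 in the libraries labelled siRbm3, and 36.5 and 36.3 in mock 37 °C. Ccna2, a cyclin of DNA replication and mitosis, had 6.08 and 7.18 FPKM in mock 32 °C, 102 and 106 with siCirbp, 61.7 and 53.3 in the libraries labelled siRbm3, and 42.2 and 39.6 in mock 37 °C. Both fell at 32 °C, and in siCirbp Ccna2 rose by 1.33 while Mki67 stood at 0.34 (limma adjusted p = 0.711). At 32 °C all 27 mitotic genes listed fell, at a median of -2.01, and 8 of 28 genes of DNA replication fell, at a median of -0.48, near the -0.46 of the 35 repair genes. In siCirbp 13 of the 27 mitotic genes rose, at a median of 1.07, and 21 of the 28 replication genes rose, at a median of 1.55, above the 0.77 of the repair genes. The part of cell cycling in the differences of the 35 genes was not tested. In bulk RNA, fewer cycling cells and less RNA per cell cannot be told apart.

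Genes of related functions outside the 35 were counted in the same fit. Of all tested genes, 13.0% were called higher and 19.8% lower at 32 °C, and 2.77% higher and 0.624% lower in siCirbp. Of 34 further genes of recombination and crosslink repair, 4 fell and 0 rose at 32 °C, at a median of -0.05. Those were Tonsl, which repairs broken forks, the nuclease subunit Eme1, the ubiquitin-conjugating enzyme Ube2t of the Fanconi anaemia pathway and the helicase Recql5, at -1.24, -1.12, -0.57 and -0.50. In siCirbp 6 of the 34 rose and 0 fell, at a median of 0.36, among them the single-strand binding proteins Rpa2 and Rpa1 at 1.72 and 1.24 and Psmc3ip at 1.65. Of 27 further checkpoint and signalling genes, 4 rose and 5 fell at 32 °C, with Fam175a, a subunit of a Brca1 complex, higher by 1.07 and the phosphatases Cdc25c and Cdc25b lower by 1.56 and 1.30. In siCirbp Cdc25c rose by 0.87 and was the 1 call in that list. Of 13 genes of end joining, the repair route that needs no sister chromatid, 1 rose and 3 fell at 32 °C, at a median of 0.08, and none passed in siCirbp. Xrcc5, which encodes a subunit of the Ku complex that binds broken ends, rose to 18.6 and 20.8 FPKM in mock 32 °C, against 7.83 and 7.32 in mock 37 °C, while Parp1 had 9.95 and 10.3 FPKM in mock 32 °C, against 25.3 and 27.1 in mock 37 °C.

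PAR-CLIP crosslinks proteins to RNA that holds 4-thiouridine, here 100 µM for 16 h, and sequences the bound stretches. Of 1941 Cirbp sites, 4 lay in loci of 3 of the 35 genes (8.57%), a share near the 8.32% of all tested genes that held a Cirbp site. Topbp1 held 1 at mm9 chr9:103213831-103213870 on the plus strand with the authors' score of 301, and Exo1 held 1 at chr1:177822133-177822154 on the plus strand with a score of 201. Blm held 2 on the minus strand, at chr7:87611659-87611685 with a score of 201 and at chr7:87602822-87602842 with a score of 1. Of 2118 Rbm3 sites, 1 lay in a locus of the 35, in H2afx at chr9:44143116-44143150 on the plus strand with a score of 477, a share of 2.86% where 8.79% of all tested genes held one. H2afx has a transcript as long as its locus, so this site lies in an exon. These shares rest on 1 library per protein, with no replicate and no control library used here, so no test was made. The proteins are expressed from added constructs with a FLAG tag, and the scale of the score is not stated in the sources used here. Of the 4 genes with a site, Exo1 rose in siCirbp, and H2afx was at 21.2 and 21.8 FPKM under the siRbm3 label, against 12.7 and 15.8 FPKM in mock 37 °C, which did not pass.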

How the data were processed

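Members and gene lists were chosen with earlier results of these data known. Single-end reads of 76 nt, per the labels' protocols, were aligned to mm9 with TopHat 1.1.2, per the submitters' processing notes. The program that made the expression tables, its annotation release and its treatment of reads with several positions are not given in the sources used here. The authors deposited FPKM values for 28702 RefSeq transcripts. They also deposited a coverage for each transcript, and its ratio to FPKM gave the number of mapped fragments. Coverage times length over read length gave read equivalents, which are not counts. Each PAR-CLIP site carries a score that the authors deposited, on a scale not given here.

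Values were added up over the transcripts of a gene, and genes averaging 1 FPKM or more in the 8 libraries (10901) entered limma 3.58.1 (R 4.3.3) on log2(FPKM + 1). The fit had 4 group means and moderated variances (trend and robust settings on), and two-sided p-values were adjusted by Benjamini-Hochberg over all tested genes, with a threshold of 0.05. It was tested on simulated data. Alternatives were the pseudocount, the filter, the scaling, the length trend, the most abundant transcript, a replicate block, the groups fitted and each library left out. Sites were assigned by an overlap of at least 1 base with a listed locus, on either strand. RefSeq start regions (GRCm38.p6, another build than the files) were matched by symbol, and no sequence was read by mm9 coordinates.

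Values in every library are given for up to 10 members of smallest adjusted p per comparison (the 5 of smallest p where fewer than 5 passed), for members with a PAR-CLIP site and for the 3 highest and 3 lowest members. Those of Atm, Bard1, Brca1, Clspn, Rad50 and Xrcc3 were added after their values were seen. Of other lists, up to 4 genes of smallest adjusted p are named. One gene that this rule takes in is not reported here.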

Additional observations from a re-analysis of the deposited data

How the results depend on the processing

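Under the 9 processing alternatives the median of the 35 genes stayed below 0 at 32 °C, from -0.73 to -0.01 (16 genes with a mean of at least 5 FPKM), and above 0 in the other 3 comparisons. Single genes changed sign at 32 °C in 4 cases after centring, 4 after quantile normalization and 5 with the length trend removed. Of the 35 genes at 32 °C, 7 of 16 tested were called with a mean of at least 5 FPKM and 24 (21 lower, 3 higher) with only the mock groups fitted, which called 7557 of all genes. In siCirbp against mock 37 °C, 3 of 16 were called with a mean of at least 5 FPKM, 1 with the length trend removed, and 0 without a filter or with only the 2 groups compared. Over all genes, siCirbp had 57 calls without a filter, 92 with the length trend removed, 217 with the most abundant transcript alone and 13 with only its 2 groups. The siRbm3 label against mock 37 °C had 1 call with the length trend removed, 2 with the most abundant transcript and 5 with its 2 groups, and siCirbp against the siRbm3 label had 7 without a filter and 7 with its 2 groups. Widening loci by 1000 bases added Rad54l to the genes with a Rbm3 site, 2 in all. Leaving out 1 library gave 3 to 18 of the 35 genes at 32 °C (400 to 5061 of all genes), 0 to 23 in siCirbp (4 to 1613), 0 to 2 under the siRbm3 label (0 to 953) and 0 to 22 for siCirbp against that label (4 to 2130); a lone library is then assumed to vary like the other groups. The Mki67 difference in siCirbp, 0.34, turned to -0.12 without siCirbp replicate 2 and ran up to 0.80. The causes of these shifts were not tested.

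Libraries with the same replicate number did not deviate together (correlations of -0.15 to 0.09), so the numbers are not taken to pair them. A fit with the replicate number as a block called 11 of the 35 genes at 32 °C, 0 in siCirbp and 3 of all genes in siCirbp. Levels under 1 FPKM rest on few reads, from about 29.5 read equivalents.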
